A study of Mus musculus with 6 samples.

Results

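The 45 genes described here are the core of the antiviral response to type I interferon: signalling factors, cytosolic nucleic acid sensors and the effector proteins that limit viral replication. They were chosen by gene symbol from a list of interferon-induced genes, with the Ifi200, schlafen, guanylate-binding protein and immunity-related GTPase families left out, and all 45 were found among the 46141 genes of the deposited gene table. The rule uses no measured value. RNA of adherent peritoneal cells was sequenced after rRNA removal in 6 libraries, each a pool of 6 male Balb/c mice aged 6 to 8 weeks. The BSN-37 group had 3 pools (18 mice), each mouse receiving 0.2 mL of BSN-37 at 48 µg/mL intraperitoneally; BSN-37 is known here only by its code name. The PBS group had 3 pools (18 mice) given 0.2 mL of phosphate-buffered saline by the same route. Mice of both groups had received 2 mL of 3% thioglycollate broth, a sterile irritant used to recruit phagocytes to the peritoneum, 3 days before sampling, and cells were taken 12 h after the BSN-37 or PBS injection and left to adhere for 4 h. Every library is therefore from elicited cells, with no unelicited or interferon-treated group, and mouse-to-mouse variation within a pool cannot be seen.

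Type I interferons bind a receptor found on nearly every cell, and the kinases JAK1 and TYK2 then phosphorylate STAT proteins, STAT2 among them. Together with IRF9 these form the transcription factor ISGF3, which binds the interferon-stimulated response element in the promoters of its target genes. The targets include RNA sensors, enzymes that degrade RNA or stop translation, GTPases, the ubiquitin-like modifier ISG15, and IRF7, which drives more interferon transcription. Macrophages keep a low tonic level of this response and can raise it strongly after contact with microbial nucleic acids or interferon.

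The libraries held 55882693, 60594432 and 64868123 counts in BSN-37 pools 1 to 3 and 60437875, 62171704 and 65456020 in PBS pools 1 to 3. The macrophage label fitted the data: all 10 macrophage markers examined passed the expression filter of at least 1 FPKM in 3 libraries, among them Adgre1 at 317, 391 and 264 FPKM (fragments scaled by gene length and library size) in BSN-37 pools and 383, 425 and 328 FPKM in PBS pools. PBS pool 1 stood apart from the other libraries over all coding genes, at 36.9 on the first principal component against -14.8 to 1.62 for the other 5. It also had the lowest share of mitochondrial counts, 0.260% against 0.597% to 1.02% elsewhere, and the highest share of the noncoding gene Gm26917, 6.06% against 4.07% to 4.44%. On the second component BSN-37 pool 3 lay at 26.2 and BSN-37 pool 2 at -19.4. The median group difference and the number of genes above 0 are given with and without these pools. Pool order, spread and summed levels are given with all 6 pools only.

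The promoters of some of these genes hold the letters of the element that ISGF3 recognises, and 5 windows are shown to let the reader see it. They come from RefSeq on GRCm38.p6, a C57BL/6J reference and not a Balb/c genome, and run 5′ to 3′ on the gene's strand from 250 bases before the transcription start to 50 bases from it on. Capitals mark every match, on either strand, to the core of the response element, GAAANNGAAA. Ifit1, Isg15 and Rsad2 were chosen as strongly varying effectors with matches, Samd9l as the only member outside the common pool order, and Lgals3bp as the member with the highest mean level; the choice was made after their values were seen.

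Ifit1: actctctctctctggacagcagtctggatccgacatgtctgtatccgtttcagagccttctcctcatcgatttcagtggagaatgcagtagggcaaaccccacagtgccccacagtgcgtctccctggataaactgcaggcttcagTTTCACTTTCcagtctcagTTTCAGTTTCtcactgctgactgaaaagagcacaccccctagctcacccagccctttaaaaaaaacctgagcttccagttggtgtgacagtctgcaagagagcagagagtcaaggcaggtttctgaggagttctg

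Isg15: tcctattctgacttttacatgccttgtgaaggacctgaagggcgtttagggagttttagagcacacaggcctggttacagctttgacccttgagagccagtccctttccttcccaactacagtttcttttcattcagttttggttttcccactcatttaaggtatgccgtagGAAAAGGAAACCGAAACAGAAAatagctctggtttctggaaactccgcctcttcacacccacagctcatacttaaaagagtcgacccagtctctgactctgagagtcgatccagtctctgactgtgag

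Rsad2: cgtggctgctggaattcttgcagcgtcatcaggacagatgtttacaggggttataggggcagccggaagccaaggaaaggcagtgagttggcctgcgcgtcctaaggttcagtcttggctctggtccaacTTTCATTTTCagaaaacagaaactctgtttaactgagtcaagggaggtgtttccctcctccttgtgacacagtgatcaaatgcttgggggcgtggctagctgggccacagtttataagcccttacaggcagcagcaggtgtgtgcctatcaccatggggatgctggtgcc

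Samd9l: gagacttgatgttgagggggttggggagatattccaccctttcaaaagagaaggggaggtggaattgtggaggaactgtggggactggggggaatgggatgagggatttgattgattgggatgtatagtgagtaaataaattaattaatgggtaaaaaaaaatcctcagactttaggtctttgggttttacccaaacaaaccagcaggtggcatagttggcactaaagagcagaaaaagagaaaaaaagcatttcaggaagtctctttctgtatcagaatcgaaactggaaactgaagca

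Lgals3bp: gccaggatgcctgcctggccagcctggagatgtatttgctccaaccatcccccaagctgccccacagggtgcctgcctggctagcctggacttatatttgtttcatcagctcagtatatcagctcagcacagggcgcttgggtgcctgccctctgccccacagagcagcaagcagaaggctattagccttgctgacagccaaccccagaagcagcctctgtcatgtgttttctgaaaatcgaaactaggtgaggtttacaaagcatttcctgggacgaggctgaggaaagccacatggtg

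The Ifit1 window (chr19:34640639-34640938, plus strand) held 2 matches on the opposite strand, starting 104 and 85 bases before the start site. The Isg15 window (chr4:156200769-156201068, minus strand) held 3 overlapping matches that together cover positions -78 to -57. The Rsad2 window (chr12:26456403-26456702, minus strand) held 1 match on the opposite strand at positions -120 to -111. The Samd9l window (chr6:3399522-3399821, minus strand) and the Lgals3bp window (chr11:118401910-118402209, minus strand) held none. Of the 45 genes, 35 had an entry in the RefSeq table, and 13 of these 35 (37.1%) held a match in at least 1 window, against 3.91% of the 7573 tested coding genes with an entry and 3.99% of all 27025 genes of the table. Besides Ifit1, Isg15 and Rsad2, the genes with a match were Ifih1, Ddx58, Oas3, Oas1g, Oas1a, Trim30a, Bst2, Stat2, Eif2ak2 and Ifit3. Of 21 matches, 17 lay upstream of the start site and 10 of them within 100 bases of it. Oas2, Mx1, Mx2, Usp18, Dhx58, Zbp1, Parp9, Parp14, Siglec1 and Rtp4 had no entry. A match describes letters and not binding, and its absence says only that these letters are not in this window.

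The 45 genes shared an order of the pools that did not follow the treatment. Their summed level was 1735, 792 and 1948 FPKM in BSN-37 pools 1 to 3, against 1694, 937 and 894 FPKM in PBS pools 1 to 3. They took 0.704%, 0.325% and 0.847% of all counts in BSN-37 pools 1 to 3, against 0.702%, 0.405% and 0.381% in PBS pools 1 to 3. Thus BSN-37 pools 1 and 3 and PBS pool 1 were high, the other 3 pools were low, and the PBS pools lay within the range of the BSN-37 pools. In bulk libraries such as these, fewer cells expressing a gene and less RNA per cell cannot be told apart.

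**Figure D1:**
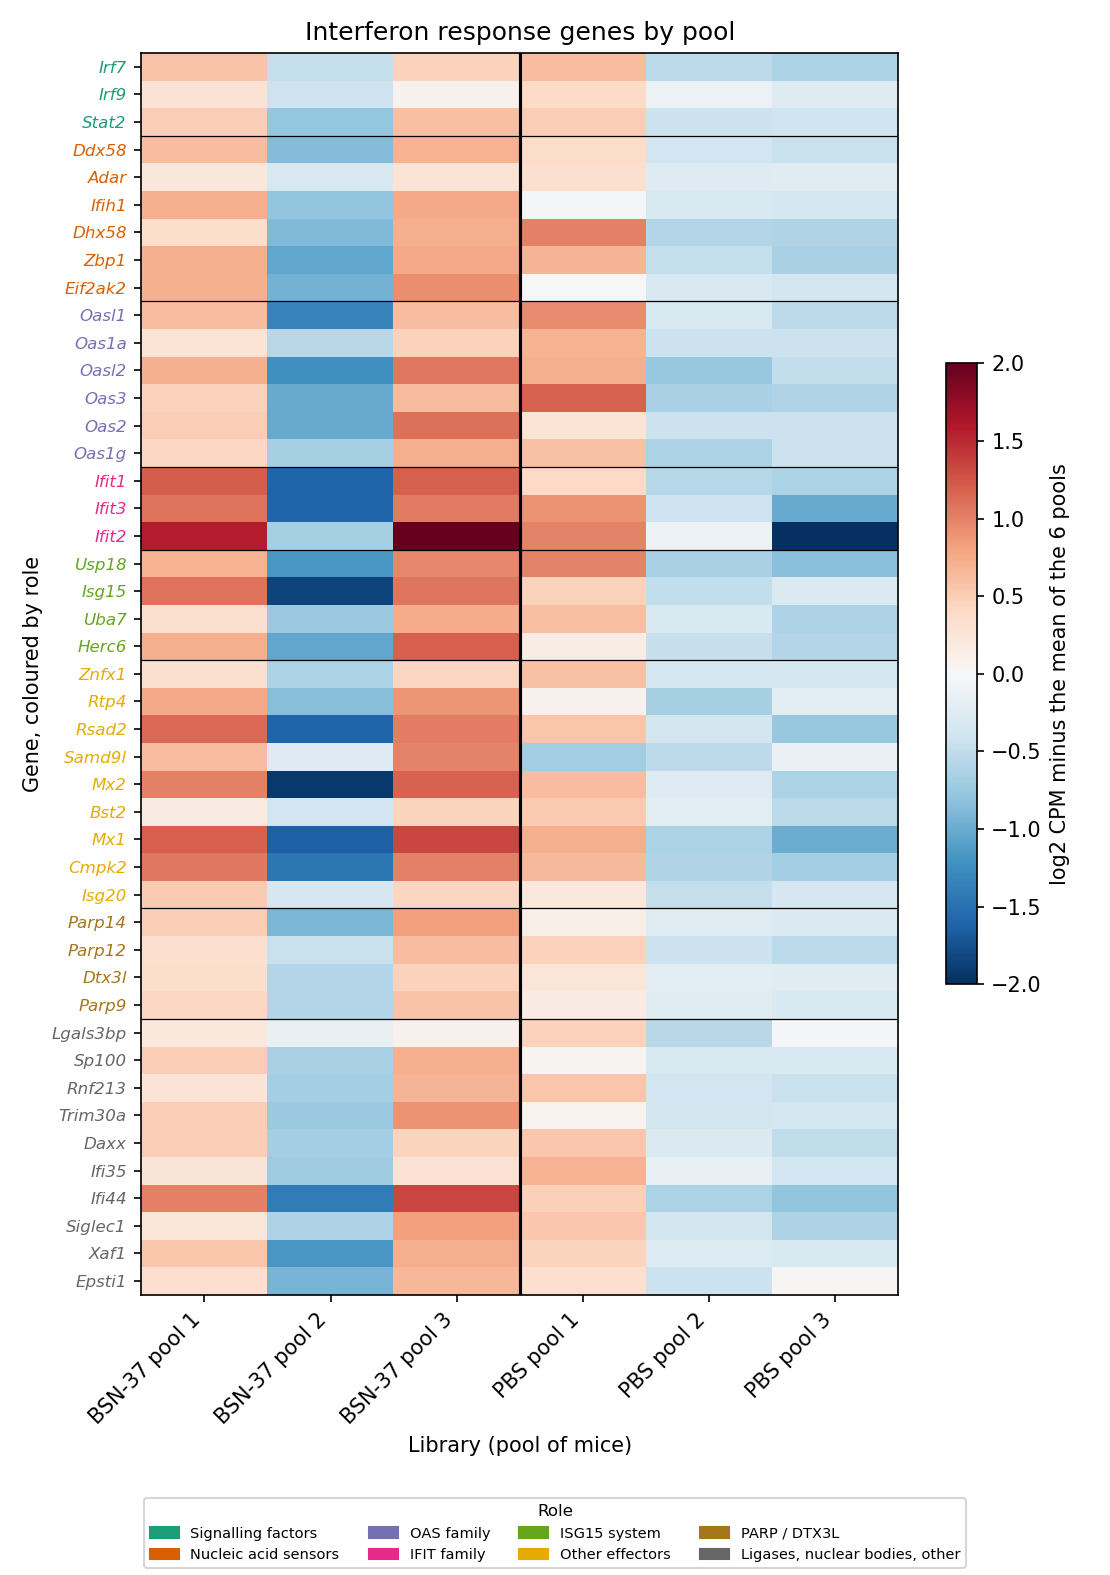
Level of each of the 45 genes (vertical axis, names coloured by role, roles divided by lines) in each of the 6 pools (horizontal axis, BSN-37 pools left of PBS pools). Colour is log2 CPM (counts scaled to library size, with TMM factors) minus the gene's mean over the 6 pools; values beyond 2 in size take the end colours, which affects Ifit2. BSN-37 pools 1 and 3 and PBS pool 1 are the 3 highest pools for 44 of the 45 genes, and BSN-37 pool 2 is the lowest for 37.

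By chromosome, 6 of the genes lie on chromosome 5 (all of the Oas family), 6 on chromosome 16 and 3 on chromosome 19 (the Ifit family), while the other 30 are spread over 13 chromosomes. Gene by gene the order was nearly uniform, as the heatmap of pools shows. On TMM-scaled counts, BSN-37 pools 1 and 3 and PBS pool 1 were the 3 highest pools for 44 of 45 genes, all but Samd9l, an order that 5.63% of the 9874 tested coding genes had. BSN-37 pool 2 was the lowest BSN-37 pool for all 45 (32.1% of coding genes) and the lowest of all 6 pools for 37 (16.8% of coding genes). The 8 genes for which some PBS pool was lower still were Irf7, Siglec1, Lgals3bp, Parp12, Isg20, Ifit2, Bst2 and Samd9l. The highest pool was BSN-37 pool 3 for 26 genes, PBS pool 1 for 13 and BSN-37 pool 1 for 6, against 20.9%, 31.0% and 10.9% of coding genes. BSN-37 pools 1 and 3 both exceeded PBS pools 2 and 3 for all 45 genes (19.0% of coding genes) and exceeded every PBS pool for 26 (12.3%). On FPKM, the same 3 pools were highest for 44 genes and BSN-37 pool 2 was lowest for 36.

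The differences between pools of the same group were large. BSN-37 pool 1 over BSN-37 pool 2 had a median FPKM ratio of 2.59 over the 45 genes, from 1.18 for Lgals3bp to 7.19 for Isg15. BSN-37 pool 3 over BSN-37 pool 2 had a median ratio of 2.98, from 1.10 for Lgals3bp to 7.31 for Isg15. PBS pool 1 over PBS pool 2 had a median ratio of 1.82, from 0.850 for Samd9l to 3.47 for Oas3. The SD of log2 CPM within a group had a median of 0.86 in BSN-37 pools and 0.55 in PBS pools, against 0.157 in BSN-37 pools and 0.183 in PBS pools over all coding genes. It was larger among BSN-37 pools for 36 of 45 genes (80.0%), against 44.3% of coding genes. No test was run on the spread.

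**Figure D2:**
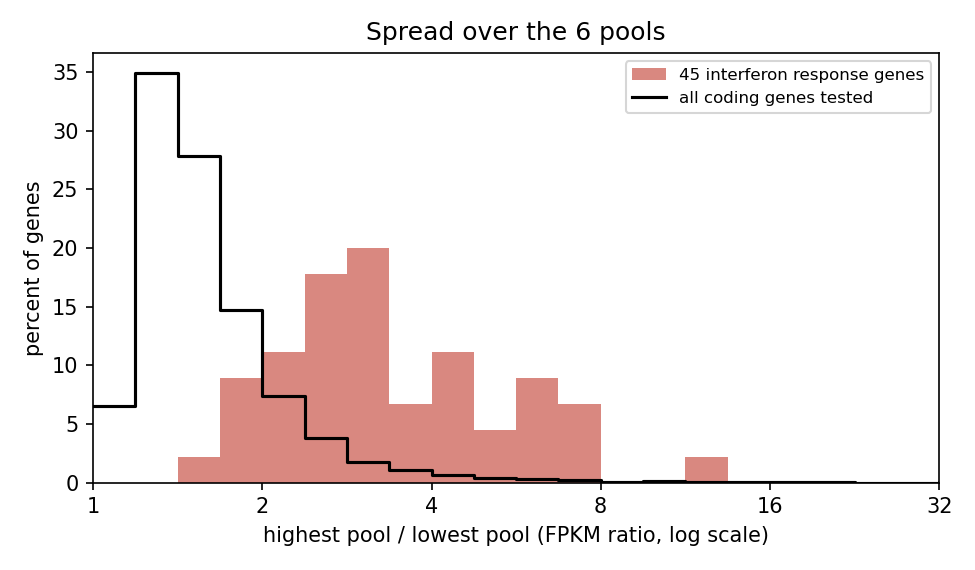
Percent of genes (vertical axis) by the ratio of the highest to the lowest of the 6 pools in FPKM (horizontal axis, log scale, cut at 32) for the 45 genes (filled) and all tested coding genes (line). The 45 genes have a median ratio of 3.04, against 1.48 for coding genes.

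The plot of pool ratios compares this spread with that of other genes. The highest pool exceeded the lowest by a median of 3.04-fold, from 1.53-fold for Adar to 12.9-fold for Ifit2, and at least 2-fold for 40 of 45 genes. Over all coding genes the median was 1.48-fold and the 95th percentile 2.80-fold, and 29 of the 45 genes lay above that percentile. The 13 genes with the promoter match had a median ratio of 3.11 and the 22 with a window but no match a median of 2.55, with ranges of 2.14 to 7.31 and 1.53 to 12.9 that overlap; this is a description with no test.

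Set against this spread, no gene of the 45 passed the test of BSN-37 against PBS pools. With edgeR's quasi-likelihood test and Benjamini-Hochberg adjustment over the 9874 coding genes, 0 of 45 had an adjusted p under 0.05, and 0.0101% of coding genes (1 gene) did. At an unadjusted p under 0.05 there was 1 of 45, Samd9l, against 9.11% of coding genes (4.71% in the higher direction). DESeq2 called 1 of 45, again Samd9l, against 1.21% of coding genes, and limma on log2(FPKM + 1) called 0 of 45 and 0% of coding genes. The FPKM ranges of the groups did not overlap for 0 of 45 genes, against 14.6% of coding genes in either direction and 7.84% in the higher direction. The submitters give as their rule an unadjusted p under 0.05 with a mean change above 2-fold. Applied here with the edgeR p and the ratio of mean FPKM, it was met by 0 of 45 genes and 0.729% of coding genes. Samd9l, at means of 29.6 FPKM in BSN-37 pools and 14.9 FPKM in PBS pools, fell just short of 2-fold.

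**Figure D3:**
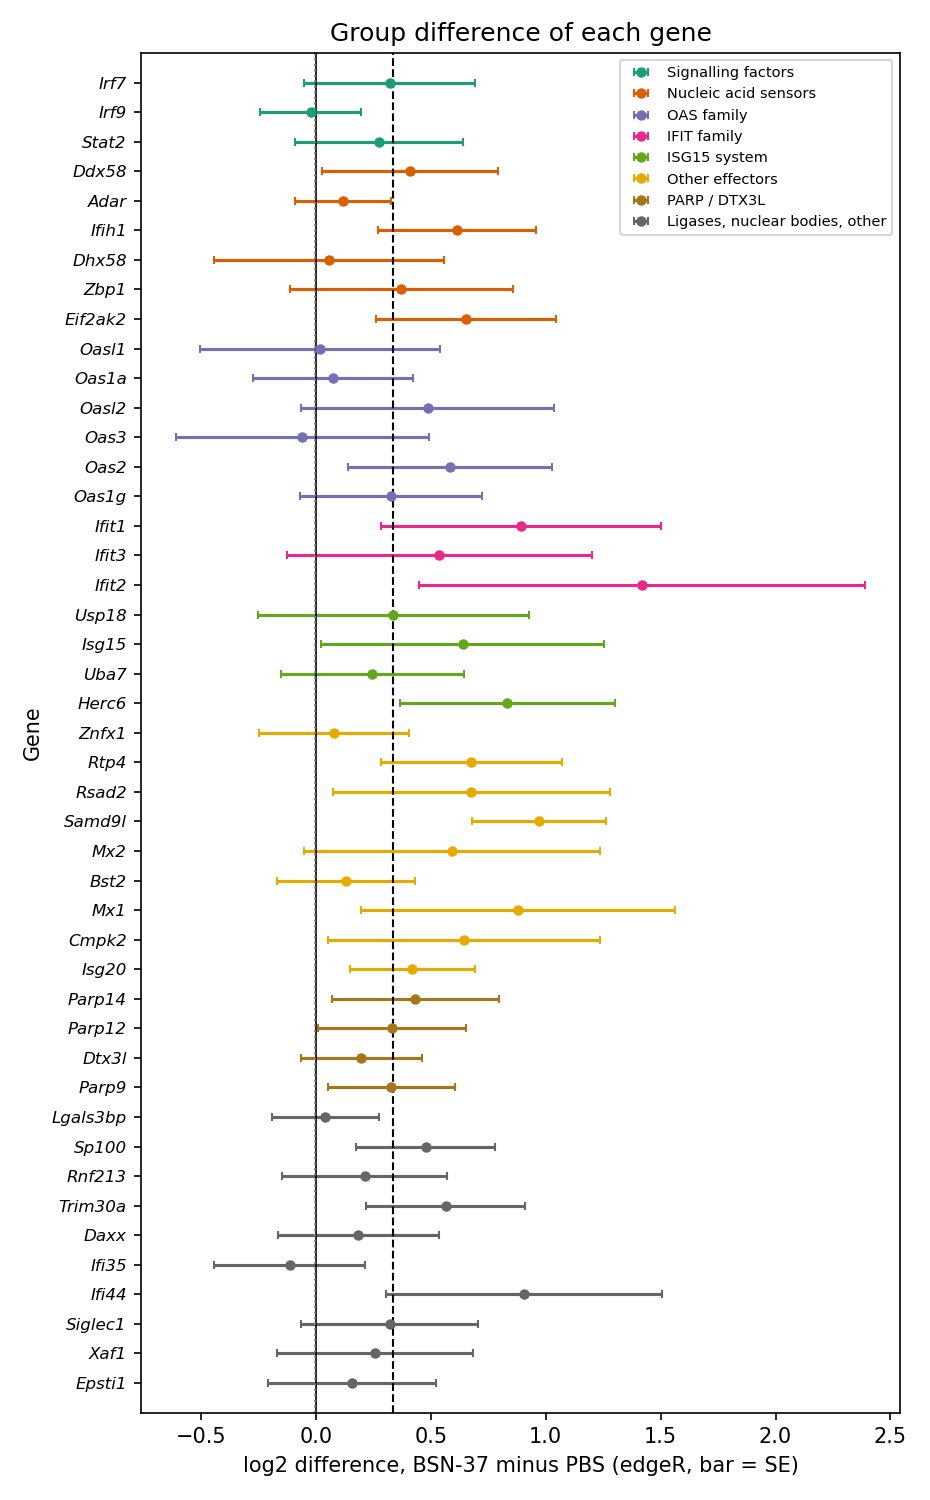
The log2 difference between BSN-37 and PBS pools (horizontal axis, BSN-37 minus PBS, edgeR, bars are the SE, 3 pools a group) for each of the 45 genes (vertical axis), coloured by role. The solid line is 0, the dotted line the median of all coding genes and the dashed line the median of the 45 genes, 0.34; 42 points lie right of 0.

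Most fitted differences were above 0, as the plot of group differences shows, and none but that of Samd9l had an unadjusted p under 0.05. The median log2 difference of the 45 genes was 0.34, against -0.00 over coding genes, and 42 of 45 lay above 0, against 49.5% of coding genes. The 3 below 0 were Oas3 at -0.06 (SE 0.55), which was above 0 in limma and with a replicate block, Irf9 at -0.02 (SE 0.22) and Ifi35 at -0.11 (SE 0.33). The SE of the log2 difference ran from 0.21 for Adar to 0.97 for Ifit2, with a median of 0.38. The genes shared a pool order, so the 42 are not independent of each other.

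**Figure D4:**
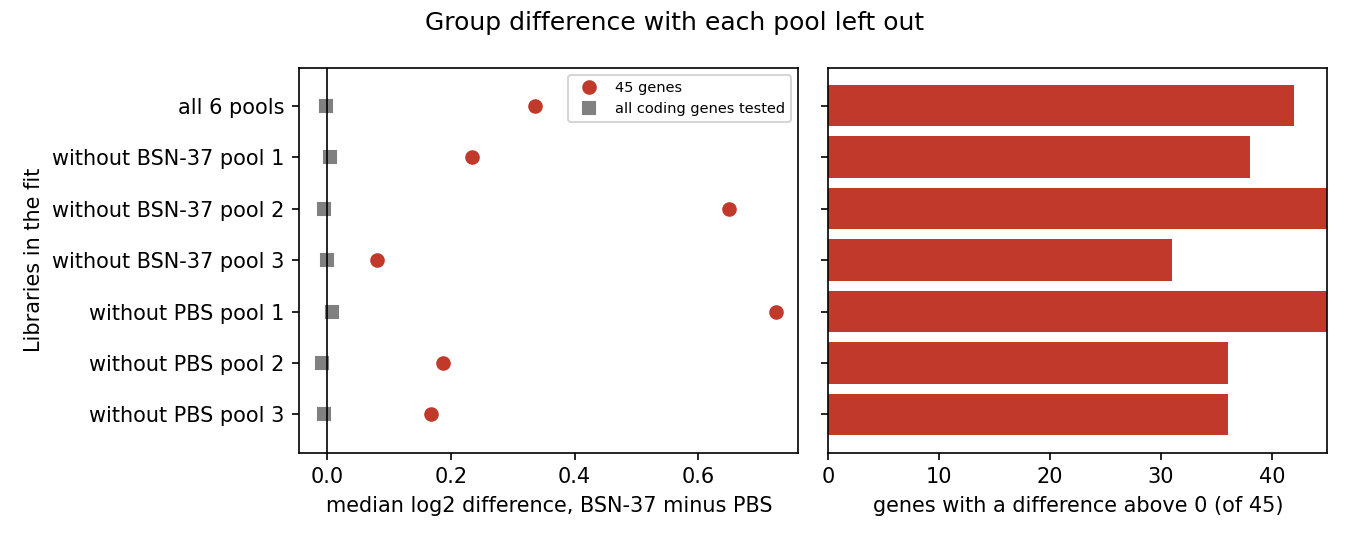
Median log2 difference of the 45 genes (left, BSN-37 minus PBS) and number of them above 0 (right, of 45), with all 6 pools and with each pool left out in turn (vertical axis). The median runs from 0.08 without BSN-37 pool 3 to 0.73 without PBS pool 1.

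The size of that median rested on single pools, as the leave-one-out plot shows. Without BSN-37 pool 2 the median was 0.65, all 45 genes lay above 0 and 22 had an unadjusted p under 0.05, against 7.31% of coding genes in that refit. Without PBS pool 1 it was 0.73, again with all 45 above 0, and 4 genes had an unadjusted p under 0.05, a share near the 8.34% of coding genes in that refit. In the other direction, the median was 0.23 without BSN-37 pool 1, with 38 genes above 0, and 0.08 without BSN-37 pool 3, with 31 above 0. It was 0.19 without PBS pool 2 and 0.17 without PBS pool 3, with 36 above 0 in each. Of all coding genes, 48.6% to 52.0% lay above 0 in the 6 refits. In none of the 6 refits did edgeR call any of the 45 genes.

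Among the signalling factors, the factor that drives interferon transcription, Irf7, was the most abundant. Irf7 (chromosome 7, 141262706 to 141266481, minus strand, GRCm38, GENCODE) had 145, 76.0 and 144 FPKM in BSN-37 pools 1 to 3, against 155, 73.6 and 62.5 FPKM in PBS pools 1 to 3. The 3 pools at about the same high level included a PBS pool, and the log2 difference was 0.32 (SE 0.37). Stat2, a transactivating subunit of ISGF3, had 28.5, 12.8 and 31.6 FPKM in BSN-37 pools 1 to 3, against 28.8, 15.7 and 15.2 FPKM in PBS pools 1 to 3. Its high PBS pool reached the level of the high BSN-37 pools, and the log2 difference was 0.28 (SE 0.37). Irf9, the DNA-binding subunit of ISGF3, had 25.8, 17.6 and 24.0 FPKM in BSN-37 pools 1 to 3, against 29.6, 21.1 and 18.1 FPKM in PBS pools 1 to 3. Its highest pool was 1.68-fold above its lowest, against medians of 3.04-fold for the 45 genes and 1.48-fold for coding genes. Adjusted p-values of the 3 (edgeR) ran from 0.791 to 0.981. Reads of Irf9 may include some from Rnf31, whose exons overlap it on the same strand. Irf7 overlaps Phrf1 on the opposite strand, and their reads may be mixed, since the use of strand in counting is not given.

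**Figure D5:**
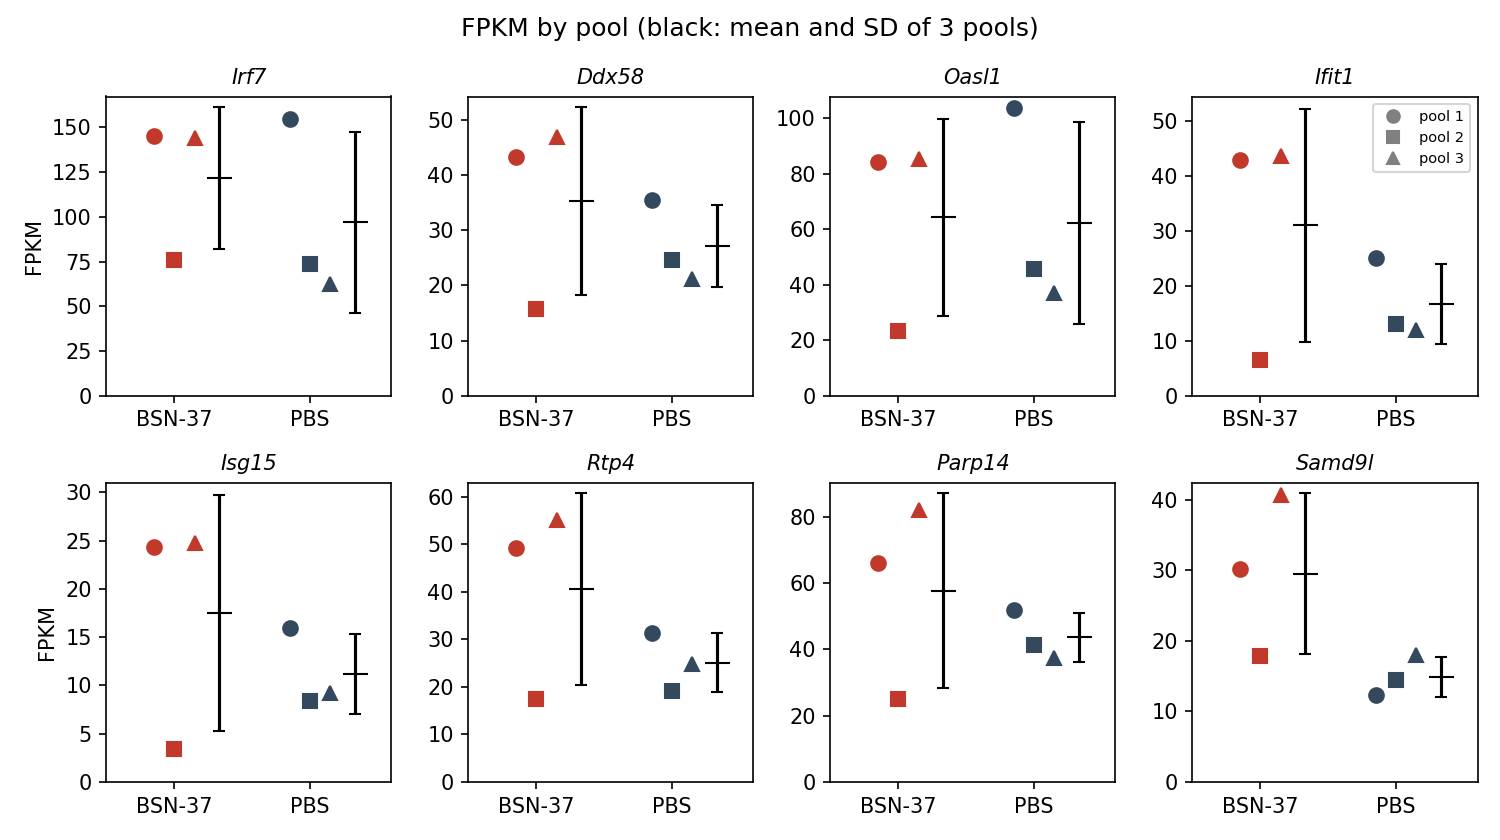
FPKM (vertical axis, from 0) in each pool of the BSN-37 group (red, left) and the PBS group (blue, right) for 8 genes, 7 with the common pool order and Samd9l without it. Marker shape gives the pool number, which was not used to pair the groups. Black lines are the mean and SD of 3 pools. In Ifit1 and Isg15 BSN-37 pool 2 is the lowest point, and in Samd9l PBS pool 1 is.

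The sensors detect viral nucleic acid in the cytosol. Ddx58, which encodes the RNA sensor RIG-I, had 43.3, 15.7 and 47.0 FPKM in BSN-37 pools 1 to 3, against 35.5, 24.6 and 21.2 FPKM in PBS pools 1 to 3. BSN-37 pools 1 and 3 were above every PBS pool and BSN-37 pool 2 below every PBS pool, a split that the plot of FPKM by pool shows, and the log2 difference was 0.41 (SE 0.38). Ifih1, which encodes the long double-stranded RNA sensor MDA5, had 27.4, 9.67 and 27.3 FPKM in BSN-37 pools 1 to 3, against 16.3, 14.0 and 11.9 FPKM in PBS pools 1 to 3. Here PBS pool 1 was closer to the other PBS pools, and the difference was 0.61 (SE 0.34). Eif2ak2, which encodes PKR, the kinase that stops translation on binding double-stranded RNA, had 18.7, 6.46 and 23.9 FPKM in BSN-37 pools 1 to 3, against 11.9, 9.90 and 8.71 FPKM in PBS pools 1 to 3. It split the BSN-37 group in the same way, with a difference of 0.65 (SE 0.39). Adar, the enzyme that edits adenosine in double-stranded RNA, had 33.6, 23.4 and 35.9 FPKM in BSN-37 pools 1 to 3, against 34.4, 24.8 and 24.4 FPKM in PBS pools 1 to 3. Its pools lay closest together of all 45 genes, and the difference was 0.12 (SE 0.21). Dhx58, which encodes the regulator LGP2, and Zbp1, a sensor of Z-form nucleic acid, had log2 differences of 0.06 and 0.37. For Dhx58 PBS pool 1 was the highest of the 6. Adjusted p-values of the 6 sensors (edgeR) ran from 0.611 to 0.978.

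The oligoadenylate synthetases make the short messenger that activates RNase L, which cuts RNA. Oas1a had 50.3, 30.6 and 58.8 FPKM in BSN-37 pools 1 to 3, against 68.5, 32.0 and 30.6 FPKM in PBS pools 1 to 3. PBS pool 1 was the highest of the 6, and the log2 difference was 0.07 (SE 0.35). Oas2 had 28.1, 10.6 and 43.4 FPKM in BSN-37 pools 1 to 3, against 24.8, 15.6 and 14.7 FPKM in PBS pools 1 to 3. Here BSN-37 pool 3 was highest, and the difference was 0.58 (SE 0.44). Oas3 had 27.1, 10.4 and 31.5 FPKM in BSN-37 pools 1 to 3, against 45.1, 13 and 12.9 FPKM in PBS pools 1 to 3. PBS pool 1 exceeded PBS pool 2 by 3.47-fold, and the means were 23.0 ± 11.1 FPKM in BSN-37 pools and 23.7 ± 18.6 FPKM in PBS pools (SD, n = 3 each). Oasl1, which in mice restrains translation of Irf7 and lacks synthetase activity, had 84.1, 23.4 and 85.2 FPKM in BSN-37 pools 1 to 3, against 104, 45.6 and 37.1 FPKM in PBS pools 1 to 3. The group difference was 0.02 (SE 0.52), the smallest in size of the family. Oasl2, a synthetase with ubiquitin-like repeats, had 39.1, 9.68 and 48.0 FPKM in BSN-37 pools 1 to 3, against 36.4, 13.7 and 15.9 FPKM in PBS pools 1 to 3. Its highest and lowest pools were both BSN-37 pools, and the difference was 0.49 (SE 0.55). Oas1g, a close copy of Oas1a whose reads may be shared with it, ranged from 9.87 to 29.0 FPKM over the pools. The family lies on chromosome 5, and adjusted p-values of the 6 (edgeR) ran from 0.683 to 0.995.

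The IFIT proteins bind viral RNA and block its translation, and the family showed some of the widest splits. Ifit1 (chromosome 19, 34640871 to 34650009, plus strand) had 42.8, 6.57 and 43.6 FPKM in BSN-37 pools 1 to 3, against 25.0, 13.05 and 12.0 FPKM in PBS pools 1 to 3. The group means were 31.0 ± 21.2 FPKM in BSN-37 pools and 16.7 ± 7.24 FPKM in PBS pools (SD, n = 3 each), and the log2 difference was 0.89 (SE 0.61) with an adjusted p of 0.663 (edgeR). The 2 matches in its promoter are those shown above. Ifit3 had 21.4, 3.54 and 21.1 FPKM in BSN-37 pools 1 to 3, against 19.0, 7.77 and 4.94 FPKM in PBS pools 1 to 3. BSN-37 pool 2 was the lowest of the 6, and the difference was 0.54 (SE 0.66); reads of Ifit3 may be shared with its near copy Ifit3b. Ifit2 had 12.7, 2.90 and 19.2 FPKM in BSN-37 pools 1 to 3, against 8.64, 4.07 and 1.48 FPKM in PBS pools 1 to 3. Its log2 difference of 1.42 (SE 0.97) was the largest of the 45, but it rests on an uneven record: in PBS pool 3 the table gives only 82 counts. Divided by FPKM and by library size in units of 1000000 counts this is 0.845, against 4.45 to 4.63 in the other 5 pools. For the other 44 genes this quotient varied by at most 1.21-fold, and it varied by more than 2-fold for 20 of 9869 coding genes. On FPKM instead of counts (limma) the Ifit2 difference was smaller, at 1.05 on the log2(FPKM + 1) scale and 1.22 on the log2(FPKM + 0.1) scale, both of which understate changes of low genes.

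ISG15 is a ubiquitin-like protein that is attached to other proteins during infection. Isg15 itself (chromosome 4, 156199424 to 156200818, minus strand) had 24.3, 3.38 and 24.7 FPKM in BSN-37 pools 1 to 3, against 16.0, 8.41 and 9.22 FPKM in PBS pools 1 to 3. BSN-37 pool 2 was 7.31-fold below BSN-37 pool 3 and the lowest of the 6 pools, and the log2 difference was 0.64 (SE 0.62). Usp18, the protease that removes ISG15 and also dampens receptor signalling, had 33.1, 9.83 and 40.7 FPKM in BSN-37 pools 1 to 3, against 41.0, 13.6 and 11.3 FPKM in PBS pools 1 to 3. PBS pool 1 was just above the highest BSN-37 pool, and the difference was 0.34 (SE 0.59). Herc6, the main ISG15 ligase of mice, had 7.20, 2.27 and 10.2 FPKM in BSN-37 pools 1 to 3, against 4.86, 3.28 and 2.87 FPKM in PBS pools 1 to 3. It was the least abundant of the 45 genes, with a difference of 0.83 (SE 0.47). Uba7, the ISG15-activating enzyme, ranged from 7.60 to 21.3 FPKM, both in BSN-37 pools, with a difference of 0.25 (SE 0.40). Adjusted p-values of the 4 (edgeR) ran from 0.611 to 0.862.

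Of the other antiviral effectors, Samd9l, a restriction factor against poxviruses, stood apart. Samd9l (chromosome 6, 3372257 to 3399572, minus strand) had 30.2, 17.8 and 40.7 FPKM in BSN-37 pools 1 to 3, against 12.3, 14.5 and 17.9 FPKM in PBS pools 1 to 3. Unlike the other 44 genes it had its lowest value in PBS pool 1, while BSN-37 pool 2, at 17.8 FPKM, lay just under PBS pool 3, at 17.9 FPKM. The group means were 29.6 ± 11.4 FPKM in BSN-37 pools and 14.9 ± 2.84 FPKM in PBS pools (SD, n = 3 each), a log2 difference of 0.97 (SE 0.29). The edgeR test gave an unadjusted p of 0.00917 and an adjusted p of 0.426, whereas DESeq2 gave an adjusted p of 0.041. With each pool left out in turn the difference ran from 0.67 to 1.25. An exact permutation test on log2 FPKM gave Samd9l a p of 0.2. Such a test over 3 against 3 pools cannot give a p below 0.1.

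Znfx1, an RNA helicase of antiviral defence, had 58.1, 30.5 and 61.5 FPKM in BSN-37 pools 1 to 3, against 68.8, 36.0 and 33.7 FPKM in PBS pools 1 to 3. PBS pool 1 was the highest pool, and the log2 difference was 0.08 (SE 0.33). Rtp4, a receptor-transporting protein that limits flaviviruses, had 49.1, 17.4 and 55.1 FPKM in BSN-37 pools 1 to 3, against 31.4, 19.1 and 24.9 FPKM in PBS pools 1 to 3. Both high BSN-37 pools exceeded every PBS pool, and the difference was 0.68 (SE 0.39) with an adjusted p of 0.622 (edgeR). The remaining genes of the group were Mx1 and Mx2 of the Mx GTPase family, Rsad2 (viperin) and its neighbour the nucleotide kinase Cmpk2. With them were the exonuclease Isg20 and the virion tether Bst2. GENCODE classes Mx2 as a polymorphic pseudogene, a class counted here among the coding genes. Mx1 and Mx2 spanned 4.11 to 29.6 and 3.97 to 28.7 FPKM, with the lowest and highest pools both in the BSN-37 group. Rsad2, with the match shown above, spanned 7.69 to 47.9 FPKM and Cmpk2 4.63 to 24.2 FPKM in the same way. Isg20 and Bst2 spanned 4.81 to 9.25 and 10.1 to 21.7 FPKM, with their lowest pools in the PBS group. The log2 differences of these 6 ran from 0.13 for Bst2 to 0.88 for Mx1.

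PARP9 and DTX3L form a complex that joins ubiquitin to targets and strengthens interferon signalling, and PARP12 and PARP14 attach ADP-ribose. Parp14, the most abundant of the 4, had 66.1, 25.0 and 82.1 FPKM in BSN-37 pools 1 to 3, against 52.0, 41.3 and 37.5 FPKM in PBS pools 1 to 3. BSN-37 pools 1 and 3 lay above and BSN-37 pool 2 below every PBS pool, with a log2 difference of 0.43 (SE 0.36). Parp12 had 41.3, 25.0 and 51.3 FPKM in BSN-37 pools 1 to 3, against 43.9, 25.4 and 21.9 FPKM in PBS pools 1 to 3. BSN-37 pool 2 was level with PBS pool 2, and the difference was 0.33 (SE 0.32). Parp9 had 35.4, 18.3 and 40.1 FPKM in BSN-37 pools 1 to 3, against 32.2, 24.7 and 21.4 FPKM in PBS pools 1 to 3. Its difference was 0.33 (SE 0.28), and Dtx3l, which overlaps Parp9 on the opposite strand so that their reads may be mixed, had 0.20 (SE 0.26). Adjusted p-values of the 4 (edgeR) ran from 0.707 to 0.812.

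The last 10 genes include ubiquitin ligases, proteins of nuclear bodies and surface or secreted proteins. Lgals3bp, a secreted glycoprotein and the most abundant of the 45, had 169, 143 and 157 FPKM in BSN-37 pools 1 to 3, against 188, 99.5 and 133 FPKM in PBS pools 1 to 3. The BSN-37 pools were close together, and the log2 difference was 0.04 (SE 0.23). Sp100, a nuclear body protein that represses viral genomes, had 77.1, 35.1 and 88.3 FPKM in BSN-37 pools 1 to 3, against 56.4, 47.0 and 43.7 FPKM in PBS pools 1 to 3. BSN-37 pools 1 and 3 stood above every PBS pool, and the difference was 0.48 (SE 0.30). Trim30a, a mouse ligase that restrains NF-kB signalling, had 43.1, 19.0 and 59.1 FPKM in BSN-37 pools 1 to 3, against 32.7, 25.2 and 24.1 FPKM in PBS pools 1 to 3. It split the BSN-37 group in the same way, with a difference of 0.56 (SE 0.35) and an adjusted p of 0.632 (edgeR). Ifi35, an interferon-induced leucine zipper protein, had 24.9, 13.7 and 26.0 FPKM in BSN-37 pools 1 to 3, against 33.8, 19.2 and 15.8 FPKM in PBS pools 1 to 3. Its difference, -0.11 (SE 0.33), was the furthest below 0 of the 45, and PBS pool 1 was its highest pool. Ifi44 spanned 6.81 to 41.2 FPKM, both ends in BSN-37 pools, with the largest difference of the 10, 0.91 (SE 0.60). The giant ligase Rnf213, the chromatin partner Daxx, the sialic acid receptor Siglec1, the apoptosis factor Xaf1 and Epsti1 had log2 differences of 0.16 to 0.32.

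The interferons themselves were near the limit of detection. Of 21 interferon ligand genes in the table, none reached the expression filter and 16 had 0 counts in every pool. Ifnb1, the first interferon made by most cells, had 3, 0 and 0 counts in BSN-37 pools 1 to 3 and 0, 0 and 6 in PBS pools 1 to 3. Ifnz had 6, 3 and 13 counts in BSN-37 pools and 0, 0 and 6 in PBS pools. Ifna12 had 5 counts in BSN-37 pool 3 and Ifna16 had 2 in BSN-37 pool 2, with 0 in all other pools. Ifng, the type II interferon, had 2 counts in PBS pool 2 only. PBS pool 1, a high pool for the 45 genes, had no count for any of the 21. A difference in ligand transcripts was not detectable at this depth.

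Genes of the interferon receptors and the signalling chain behind them were all expressed. All 9 passed the filter, 5 lay above 0 with a median log2 difference of 0.10, and none was called. By edgeR 1 of the 9, Ifngr1, had an unadjusted p under 0.05, against 9.11% of coding genes. Ifngr1, a subunit of the type II receptor, had 66.3, 84.6 and 68.2 FPKM in BSN-37 pools 1 to 3, against 47.4, 58.4 and 53.9 FPKM in PBS pools 1 to 3. The groups did not overlap, as for 14.6% of coding genes, and the difference was 0.43 (SE 0.13) with an adjusted p of 0.426 (edgeR). Jak1 and Ifnar2 had differences of 0.14 (SE 0.11) and 0.11 (SE 0.11).

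Of 17 genes that lead to interferon production, all were tested, 12 lay above 0 with a median of 0.12, and none was called. By edgeR 1 of the 17 had an unadjusted p under 0.05, against 9.11% of coding genes. Tlr7, the endosomal receptor for single-stranded RNA, had 36.0, 39.2 and 45 FPKM in BSN-37 pools 1 to 3, against 17.9, 26.4 and 23.7 FPKM in PBS pools 1 to 3. The groups did not overlap, as for 14.6% of coding genes. The log2 difference was 0.77 (SE 0.16) with an unadjusted p of 0.00105 and an adjusted p of 0.359 (edgeR). The pool order of Tlr7 was not that of the 45 genes, since PBS pool 1 was its lowest pool. Other genes of the list, such as Trim25 and Irf1, were highest in BSN-37 pools 1 and 3 and PBS pool 1. The mean log2 level of the 17 genes, relative to the PBS mean, had these same 3 highest pools over a narrow range. It was 0.24, -0.06 and 0.21 in BSN-37 pools 1 to 3, against 0.10, -0.06 and -0.04 in PBS pools 1 to 3. Irf8 and Tlr3 had differences of 0.29 (SE 0.15) and 0.46 (SE 0.26). Of 10 negative regulators, all were tested, 5 lay above 0 with a median of -0.07, and none was called. By edgeR 3 of the 10 had an unadjusted p under 0.05, against 9.11% of coding genes. Socs3, an inhibitor of cytokine receptor signalling, had 10.1, 8.14 and 8.65 FPKM in BSN-37 pools 1 to 3, against 12.9, 17.0 and 10.1 FPKM in PBS pools 1 to 3, a difference of -0.60 (SE 0.19) with an adjusted p of 0.426 (edgeR). The phosphatase gene Ptpn1 and the protease gene Usp25 had differences of -0.41 (SE 0.13) and 0.37 (SE 0.14). Socs1 and Nlrc5, also of this list, were highest in BSN-37 pools 1 and 3 and PBS pool 1. Trim25, Irf1, Socs1 and Nlrc5 were named after their values were seen.

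Close copies of the 45 genes that the list did not hold had, on average, the same pool order. Of 14 looked for, 13 had an entry, 4 of these had 0 counts in every pool and 7 passed the filter. Their mean log2 CPM relative to the PBS mean was 0.92, -0.68 and 1.22 in BSN-37 pools 1 to 3, against 0.75, -0.32 and -0.43 in PBS pools 1 to 3. For the 45 genes the same measure was 0.77, -0.73 and 0.94 in BSN-37 pools 1 to 3, against 0.63, -0.25 and -0.38 in PBS pools 1 to 3. All 7 tested copies lay above 0 with a median of 0.68, and none was called. Ifi44l, a paralog of Ifi44, had 13.2, 5.47 and 24.8 FPKM in BSN-37 pools 1 to 3, against 14.1, 5.09 and 3.17 FPKM in PBS pools 1 to 3, and its difference was 0.95 (SE 0.63). Ifit1bl1 and Trim30d had differences of 0.84 (SE 0.42) and 0.68 (SE 0.42). Reads of such copies may be shared with the genes of the list.

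Markers of other cells that adherence may leave were examined beside the pool order. Plasmacytoid dendritic cells, which can make much interferon, had 2 of 8 markers past the filter, with summed levels of 8.33 to 14.3 FPKM in BSN-37 pools and 8.96 to 11.4 FPKM in PBS pools. Klk1 had no count in any pool, and Siglech reached 0.0332 FPKM in BSN-37 pools and 0.0591 FPKM in PBS pools. The 2 markers past the filter were Tcf4, at 9.49, 5.86 and 11.7 FPKM in BSN-37 pools 1 to 3, against 7.16, 9.14 and 6.79 FPKM in PBS pools 1 to 3, and Cox6a2, at 1.82, 1.29 and 1.53 FPKM in BSN-37 pools 1 to 3, against 1.39, 1.61 and 1.71 FPKM in PBS pools 1 to 3. On FPKM Tcf4 was, like most of the 45 genes, high in BSN-37 pools 3 and 1 and lowest in BSN-37 pool 2. Unlike for them, PBS pool 2 and not PBS pool 1 was its highest PBS pool. On counts the likeness to the 45 genes did not hold, since PBS pool 1 was the lowest pool of Tcf4. It had 2384, 2230 and 3299 counts in BSN-37 pools 1 to 3, against 1594, 2517 and 2399 in PBS pools 1 to 3. Neutrophil markers (4 of 10 past the filter, Elane at 0) summed to 62.1, 143 and 36.4 FPKM in BSN-37 pools 1 to 3, against 20.4, 62.6 and 48.5 FPKM in PBS pools 1 to 3. BSN-37 pool 2, the lowest for the 45 genes, was thus the highest of the 6 for neutrophil markers. B cell markers (6 of 8 past the filter) summed to 40.7, 43.9 and 28.8 FPKM in BSN-37 pools 1 to 3, against 22.6, 29.5 and 18.1 FPKM in PBS pools 1 to 3. Monocyte markers (8 of 8) summed to 2967, 2408 and 2564 FPKM in BSN-37 pools, against 2262, 2370 and 2102 FPKM in PBS pools, a sum that is mostly Fn1. Over the list the median log2 difference was 0.75, above the 0.34 of the 45 genes, and 7 of 8 lay above 0. By edgeR 6 of 8 had an unadjusted p under 0.05, against 9.11% of coding genes, and none was called. Of the 6, F13a1 was lower in BSN-37 pools, at -0.35 (SE 0.14), and the others were higher. Among the higher ones Ccr2, the chemokine receptor of inflammatory monocytes, had 49.6, 58.3 and 57.6 FPKM in BSN-37 pools 1 to 3, against 18.5, 27.9 and 27.04 FPKM in PBS pools 1 to 3, a difference of 1.14 (SE 0.16) with an adjusted p of 0.278 (edgeR). The mean log2 level of all 8 monocyte markers, relative to the PBS mean, was 0.92, 0.79 and 0.41 in BSN-37 pools 1 to 3, against -0.11, 0.27 and -0.16 in PBS pools 1 to 3, so BSN-37 pool 2 was high for monocyte markers and low for the 45 genes. Macrophage markers (10 of 10) summed to 15779 to 18438 FPKM in BSN-37 pools and 15688 to 18125 FPKM in PBS pools, a sum that is mostly Lyz2. Their mean log2 level was 0.19, -0.08 and 0.15 in BSN-37 pools 1 to 3, against 0.10, -0.05 and -0.05 in PBS pools 1 to 3. On this measure BSN-37 pools 1 and 3 and PBS pool 1 were the 3 highest and BSN-37 pool 2 the lowest, as for the 45 genes but over a narrower range. Among them Fcgr1, an Fc receptor gene, had 17.1, 7.44 and 19.3 FPKM in BSN-37 pools 1 to 3, against 12.3, 8.24 and 4.28 FPKM in PBS pools 1 to 3. Erythrocyte markers (0 of 5) summed to 0.862, 0.165 and 33.9 FPKM in BSN-37 pools, against 1.28, 20.1 and 0.395 FPKM in PBS pools. Resident peritoneal macrophage markers (7 of 8) summed to 215, 211 and 152 FPKM in BSN-37 pools, against 164, 165 and 181 FPKM in PBS pools. Markers of T and NK cells (1 of 10), mast cells (1 of 7) and mesothelial cells or fibroblasts (2 of 7) summed to at most 6.51 FPKM in BSN-37 pools and 6.42 FPKM in PBS pools. Ccr2, F13a1, Fcgr1, Tcf4, Cox6a2, Fn1 and Lyz2 were named after their values were seen. The part of these cells in the level of the 45 genes was not tested.

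The authors' deposited table holds their own DESeq2 comparison of the groups. In the authors' deposited table, log2 fold changes of the 45 genes ran from -0.07 to 0.67, and 42 were above 0. Their unadjusted p was under 0.05 for 1 of the 45, Samd9l, at 0.000462 with a log2 fold change of 0.67 in the authors' deposited table, against 9.92% of the 9845 tested coding genes with a value there.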

How the data were processed

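The gene table holds deposited read counts and FPKM (fragments scaled by gene length and library size) for 46141 genes in 6 libraries, per the file headers, and another table junction reads of circular RNAs. Libraries came from a directional kit, per the labels' protocols; the design text also names microarrays, which were not analysed here. GRCm38 is the build in the submitters' processing notes. Aligner, counter and strand use were not given in the sources used here. Group means (4 columns) were not used.

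The 9874 coding genes (GENCODE classes by Ensembl ID) that reached 1 FPKM in 3 or more of 6 libraries were tested on the deposited counts with edgeR 4.0.16 (TMM, quasi-likelihood, two-sided, adjusted p threshold 0.05) in R 4.3.3. DESeq2 1.42.0, limma 3.58.1, other scalings and filters, a replicate block and leave-one-out refits were alternatives. On simulated data edgeR recovered 24% of 1.5-fold, 82% of 2-fold, 94% of 3-fold and 100% of 4-fold changes among 9874 genes, with 20 false calls. The changed genes were drawn from all tested coding genes above a minimum count. The 45 genes varied more, with median within-group SDs of 0.86 (BSN-37) and 0.55 (PBS), against 0.157 and 0.183 over coding genes. Recovery among genes as variable as the 45 was not simulated separately, so these rates do not apply to them. Libraries differed beyond sampling noise (lowest chi-square per degree of freedom 61.5). The pools may share handling and so may not be independent. The p-values weigh the group difference only against the spread between these pools. Members and lists were chosen with earlier results of these data known. Given in full were the 2 genes of highest mean FPKM and the 2 of lowest unadjusted p in each of 8 role groups, those against their group's direction, and up to 3 genes per pathway list; 1 gene of a pathway list is not reported here.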

Additional observations from a re-analysis of the deposited data

How the results depend on the processing

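The absence of calls among the 45 genes held in every refit except DESeq2, which called 1, Samd9l. The number of coding genes called was 0 with median-of-ratios scaling, 119 with DESeq2, 0 with limma at either pseudocount, 2 with no filter on low values, 0 with at least 5 FPKM in at least 3 libraries (which drops Herc6), 0 over all gene classes, and 0 to 12 with each pool left out, the 12 without BSN-37 pool 2. Left-out pools moved the number of the 45 genes above 0 between 31 and 45 and their median log2 difference between 0.081 and 0.73, while the other 8 settings gave 41 to 42 genes and medians of 0.29 to 0.35. Deviations of same-numbered pools from their group means had correlations of 0.06, 0.14 and -0.01. BSN-37 pools 1 and 2 correlated best with the PBS pool of the same number, and BSN-37 pool 3 with PBS pool 1. Correlations this small cannot decide whether the numbers pair the samples, and the main fit was unpaired. With the replicate number as a block, 0 coding genes and 0 of the 45 were called, the median was 0.29, and Oas3 and Oasl1 were at 0.037 and -0.082. These 2 genes also changed sign in limma, at 0.072 and -0.020 with a pseudocount of 1 and 0.077 and -0.023 with 0.1.

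With a pool left out, 16 genes changed sign at least once and 29 never did in any refit. The log2 differences ran from -0.13 to 0.56 for Oas1a, -0.36 to 0.83 for Oas3, -0.24 to 0.62 for Oasl1, -0.17 to 0.20 for Irf9, -0.035 to 1.16 for Usp18, -0.29 to 0.81 for Dhx58, -0.31 to 0.29 for Ifi35, -0.11 to 0.61 for Rnf213, -0.064 to 0.76 for Siglec1, -0.10 to 0.70 for Uba7, -0.11 to 0.47 for Znfx1, -0.014 to 0.57 for Daxx, -0.058 to 0.65 for Xaf1, -0.075 to 0.50 for Bst2, -0.17 to 0.50 for Epsti1 and -0.18 to 0.33 for Lgals3bp. None of these 16 was called in any refit. Depth limited the interferon ligands, whose 21 genes together had 5 to 18 counts in BSN-37 pools and 0 to 12 in PBS pools.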

Other observations

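Circular RNAs, made by back-splicing of exons, are a second readout of the same loci. Of 1273 circular RNA loci in the deposited junction-read table, 2 had a host among the 45 genes. The circle of Parp14 (chromosome 16, 35864466 to 35866595) had 10 junction reads in PBS pool 1 and 0 in the other 5 pools. The circle of Herc6 (chromosome 6, 57638908 to 57662445) had 3 junction reads in PBS pool 3 and 0 in the other 5. Linear Parp14 was higher in BSN-37 pools 1 and 3, at 66.1 and 82.1 FPKM, than in PBS pool 1, at 52.0 FPKM. With so few reads the circular forms of these genes cannot be compared between groups.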
